A study of Homo sapiens with 12 samples.

Results

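The genes described here encode the proteins of the mitochondrial ribosome. They were taken by name: every probe whose gene symbol begins with MRPL or MRPS followed by a number, with pseudogenes left out. The rule found 110 probes for 77 genes, 49 named MRPL and 28 named MRPS, after the large and the small subunit, among 48803 probes and 18665 genes on the arrays. The rule uses symbols alone. Total RNA came from U2OS, a human osteosarcoma cell line, transfected with scramble siRNA (siCtl) or with a mix of siRNAs against NCoR (siNCoR, spelled siNCOR in the sample labels) or SMRT (siSMRT), a pair of related co-repressors that silence genes on chromatin. After 2 days each culture was left untreated or received 100 µM CDDP (cisplatin), a drug that crosslinks DNA, for 6 h. The sample labels read no-treatment, which is given here as untreated, whereas the study states its fold changes against vehicle. Each of the 6 groups was hybridised on 2 Illumina bead arrays from biological duplicates, 12 arrays in all. The comparisons ask how these genes responded to the drug, whether loss of either co-repressor altered them, and whether it altered their response to the drug.

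Mitochondria carry their own ribosomes, which translate the few proteins encoded by mitochondrial DNA, all of them subunits of the respiratory chain and the ATP synthase. Every protein of these ribosomes is encoded in the nucleus, made in the cytosol and imported. Some have counterparts in bacterial ribosomes (for example MRPL12, MRPS12 and MRPS16), and others were added during the evolution of mitochondria (for example MRPL49, MRPL50 and MRPS31).

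All 77 genes gave a signal above the floor used here (100 on the linear scale after quantile normalisation and before background correction, in both arrays of at least 1 group), as did 103 of their 110 probes, and all 77 were tested with limma among 9808 genes. Where a gene had more than 1 such probe (21 genes), values and counts are those of its brightest probe unless another probe is named. No gene had probes called in opposite directions, but the probes of a gene did not always give the same call. A gene is called higher or lower where limma's Benjamini-Hochberg adjusted p over all genes tested was below 0.05. Levels and differences are given on the log2 scale, and levels are compared between arrays, not between genes. The correlation of the log2 values between the arrays of a group was 0.9939 to 0.9957. The levels of the targeted genes are not analysed here. Of the markers of bone and mesenchymal cells, VIM, CDH2, COL1A1, SPARC, TWIST1 and RUNX2 were above the floor and COL1A2 was below it. RUNX2 passed by 1 probe (lowest uncorrected signal 51.4, with CDDP), its other probe being below. With CDDP it differed by -1.37, -1.21 and -1.198 in siCtl, siNCoR and siSMRT cells. CDH2 differed by -0.56, -0.51 and -0.43 and SPARC by 0.54, 0.32 and 0.67 in the same order. TWIST1 rose by 0.54 with CDDP in siSMRT cells. SPARC was lower in siSMRT than in siCtl cells (-0.64 untreated, -0.51 under CDDP). RUNX2 was also lower in siNCoR (-0.53, -0.37) and untreated siSMRT cells (-0.32). Of the markers of other cell types, CDH1, KRT19, PTPRC, HBB and GFAP were below the floor, and EPCAM (by 1 probe, its other probe being below) and SNAP25 were above it. EPCAM was 0.61 to 0.88 log2 higher in siNCoR and siSMRT than in siCtl cells in each drug condition, and it rose by 0.46 with CDDP in siNCoR cells. SNAP25 fell by 0.33 and 0.30 with CDDP in siCtl and siNCoR cells and was lower in siNCoR than in siCtl cells (-0.44 untreated, -0.40 under CDDP). The part of these markers in the results was not tested.

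By their brightest probes, a small set of genes responded to CDDP in the same direction under all 3 siRNAs: MRPL49, MRPL58, MRPL44 and MRPL32 rose, and MRPS16 fell. Their promoters are shown because these 5 were called under every siRNA. Each line is the RefSeq window (GRCh38.p14) from 250 bases before to 50 after an annotated start, read 5′ to 3′ on the gene's strand. Capitals mark matches on either strand to motifs that were searched for by their letters: the E-box CACGTG, the YY1 motif AAGATGG, the ETS motif CCGGAAG and the CCAAT box. MRPL49 has 2 annotated windows, of which 1 is given.
MRPL49 (chr11:65121933-65122232, plus strand): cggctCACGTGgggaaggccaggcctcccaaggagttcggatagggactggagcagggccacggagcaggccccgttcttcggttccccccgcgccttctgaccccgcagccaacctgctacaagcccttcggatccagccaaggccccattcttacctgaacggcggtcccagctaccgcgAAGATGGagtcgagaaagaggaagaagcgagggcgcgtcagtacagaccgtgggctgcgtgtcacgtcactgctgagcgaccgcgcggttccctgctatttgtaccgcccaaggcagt
MRPL58 (chr17:75012420-75012719, plus strand): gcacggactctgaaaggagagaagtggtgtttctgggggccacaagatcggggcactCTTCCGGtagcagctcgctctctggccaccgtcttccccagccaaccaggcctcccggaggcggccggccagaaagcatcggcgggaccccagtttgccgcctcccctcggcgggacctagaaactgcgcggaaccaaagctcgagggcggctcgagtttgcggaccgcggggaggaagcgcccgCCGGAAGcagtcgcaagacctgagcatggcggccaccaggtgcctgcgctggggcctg
MRPL44 (chr2:223957213-223957512, plus strand): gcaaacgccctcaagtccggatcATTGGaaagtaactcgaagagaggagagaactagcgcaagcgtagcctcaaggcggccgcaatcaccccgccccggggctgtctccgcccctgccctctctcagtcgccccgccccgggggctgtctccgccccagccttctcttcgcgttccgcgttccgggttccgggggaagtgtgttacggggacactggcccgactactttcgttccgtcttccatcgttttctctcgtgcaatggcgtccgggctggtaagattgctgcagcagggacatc
MRPL32 (chr7:42932126-42932425, plus strand): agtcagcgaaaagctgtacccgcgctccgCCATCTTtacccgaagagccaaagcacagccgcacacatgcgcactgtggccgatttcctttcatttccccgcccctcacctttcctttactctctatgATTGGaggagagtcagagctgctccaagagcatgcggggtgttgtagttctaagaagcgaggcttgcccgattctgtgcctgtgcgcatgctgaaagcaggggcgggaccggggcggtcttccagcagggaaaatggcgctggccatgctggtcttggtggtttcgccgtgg
MRPS16 (chr10:73252595-73252894, minus strand): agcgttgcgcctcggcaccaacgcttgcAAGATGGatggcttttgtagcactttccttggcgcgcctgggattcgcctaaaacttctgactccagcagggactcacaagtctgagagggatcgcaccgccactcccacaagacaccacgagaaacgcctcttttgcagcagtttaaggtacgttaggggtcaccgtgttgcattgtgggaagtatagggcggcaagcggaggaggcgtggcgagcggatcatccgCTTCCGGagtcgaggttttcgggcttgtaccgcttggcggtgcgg

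The windows share no single element. MRPL49 holds an E-box and a YY1 motif, MRPL32 a YY1 motif and a CCAAT box read on the opposite strand, and MRPS16, the gene that fell, a YY1 and an ETS motif. MRPL58 holds 2 ETS motifs, 1 on each strand, and MRPL44 only a CCAAT box on the opposite strand. A match is a run of letters and not evidence that a factor binds there.

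MRPL49, a large subunit protein without a bacterial counterpart, had the largest rise of the brightest probes in siCtl cells. Its log2 level in untreated cells was 8.97 and 9.10 under siCtl, 9.03 and 9.22 under siNCoR and 9.32 and 9.16 under siSMRT (replicates 1 and 2). With CDDP it was 9.63 and 9.82, 9.73 and 9.69, and 9.83 and 9.84 in the same order. Every CDDP array lay above every untreated array. The rise was 0.69 log2 (SE 0.106, limma adjusted p = 0.000328) in siCtl, 0.58 (SE 0.106, adjusted p = 0.00102) in siNCoR and 0.59 (SE 0.106, adjusted p = 0.000859) in siSMRT cells. The call held in siCtl and siSMRT cells under all 10 other processing settings, and in siNCoR cells under 9.

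MRPL58 (also called ICT1) is a peptidyl-tRNA hydrolase that is built into the large subunit and releases peptides from stalled mitochondrial ribosomes. Its untreated levels were 9.31 and 9.49 under siCtl, 9.56 and 9.54 under siNCoR, and 9.68 and 9.60 under siSMRT. Its levels with CDDP were 9.84 and 9.90, 9.94 and 10.03, and 9.99 and 10.11. Again the 6 treated arrays all lay above the 6 untreated ones. The rise was 0.48 (SE 0.0952, limma adjusted p = 0.00199), 0.44 (SE 0.0952, adjusted p = 0.00325) and 0.41 (SE 0.0952, adjusted p = 0.00473), the siRNAs being in the same order, and the call in siNCoR cells was lost with median scaling over all probes. MRPL44, which carries an RNase III-like domain, measured 9.23 and 9.46, 9.08 and 9.36, and 9.43 and 9.39 without the drug. With the drug it measured 9.77 and 9.87, 9.86 and 9.82, and 9.98 and 9.90, with no overlap between treated and untreated arrays. It rose by 0.48 (SE 0.114, adjusted p = 0.00601), 0.62 (SE 0.114, adjusted p = 0.00109) and 0.53 (SE 0.114, adjusted p = 0.00285). In siCtl cells its call was lost with median scaling over all probes and without siCtl untreated replicate 1.

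MRPL32, a large subunit protein that the m-AAA protease trims into its mature form, measured 11.08 and 11.20, 11.23 and 11.30, and 11.10 and 11.15 without the drug. With CDDP it measured 11.52 and 11.67, 11.61 and 11.81, and 11.44 and 11.63. Treated and untreated arrays did not overlap, and the rises were 0.46 (SE 0.108, limma adjusted p = 0.00586), 0.44 (SE 0.108, adjusted p = 0.00644) and 0.41 (SE 0.108, adjusted p = 0.00954). Its call was lost without siCtl untreated replicate 1 or siCtl CDDP replicate 2 in siCtl cells, without siNCoR CDDP replicate 2 in siNCoR cells, and without siSMRT untreated replicate 1 or siSMRT CDDP replicate 2 in siSMRT cells. MRPS16, a small subunit protein of bacterial type, was the only gene to fall under all 3 siRNAs. It measured 10.49 and 10.62, 10.67 and 10.55, and 10.57 and 10.53 without the drug, and 10.19 and 10.29, 10.32 and 10.18, and 10.24 and 10.15 with it. All treated arrays lay below all untreated ones, and the falls were by 0.32 (SE 0.0963, adjusted p = 0.0203), 0.36 (SE 0.0963, adjusted p = 0.0108) and 0.35 (SE 0.0963, adjusted p = 0.0116). The fall passed the test in siNCoR cells under each scaling tried, but in siCtl and siSMRT cells under neither form of median scaling. In siCtl cells the call was also lost with no filter on dim probes and with only the arrays compared. With 1 array left out at a time the difference ran from -0.39 to -0.26 in siCtl, -0.43 to -0.29 in siNCoR and -0.39 to -0.31 in siSMRT cells. The call of MRPS16 was lost in siCtl cells without siCtl untreated replicate 2 or siCtl CDDP replicate 1. In siNCoR and siSMRT cells it was lost without untreated replicate 1 or CDDP replicate 2 of the same siRNA.

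Other probes of 4 genes were also called higher under all 3 siRNAs when every probe was fitted on its own, which made 9 genes with such a probe. The brightest probe of MRPL43 differed by -0.17, -0.00 and -0.03 in siCtl, siNCoR and siSMRT cells without a call. A dimmer probe of the same gene measured 6.11 and 6.12, 5.80 and 6.08, and 5.75 and 5.91 without the drug, and 7.20 and 7.51, 7.16 and 7.63, and 6.997 and 7.48 with it, rises of 1.24, 1.46 and 1.41 (limma adjusted p = 0.000322, 0.000101 and 0.000126). Treated and untreated arrays of this probe did not overlap, and MRPL43 has another probe that rose by 0.29 in siSMRT cells alone. The untreated arrays of the dimmer probe were its lowest, and its lowest uncorrected signal was 76.3, below the floor. The sizes of its rises and their adjusted p thus rest on untreated values near or below the floor. MRPL43 counts among the 9 genes through this probe alone. A dim probe of MRPS12, a protein of the decoding centre, measured 6.54 and 6.44, 7.03 and 6.95, and 7.02 and 6.60 without the drug, and 7.87 and 7.98, 8.11 and 7.85, and 8.09 and 7.997 with it. It rose by 1.44, 0.99 and 1.23 (adjusted p = 1.21e-05, 0.000182 and 3.67e-05) and another probe by 0.40, 0.55 and 0.38, while the brightest probe of MRPS12 differed by 0.19, 0.26 and 0.22 and was called in siNCoR cells only. The dimmer probe of MRPL47 rose by 0.31, 0.45 and 0.42 and that of MRPS21 by 0.34, 0.44 and 0.31, beside -0.04, 0.40 and 0.36 and -0.08, 0.06 and 0.04 for their brightest probes.

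**Figure D1:**
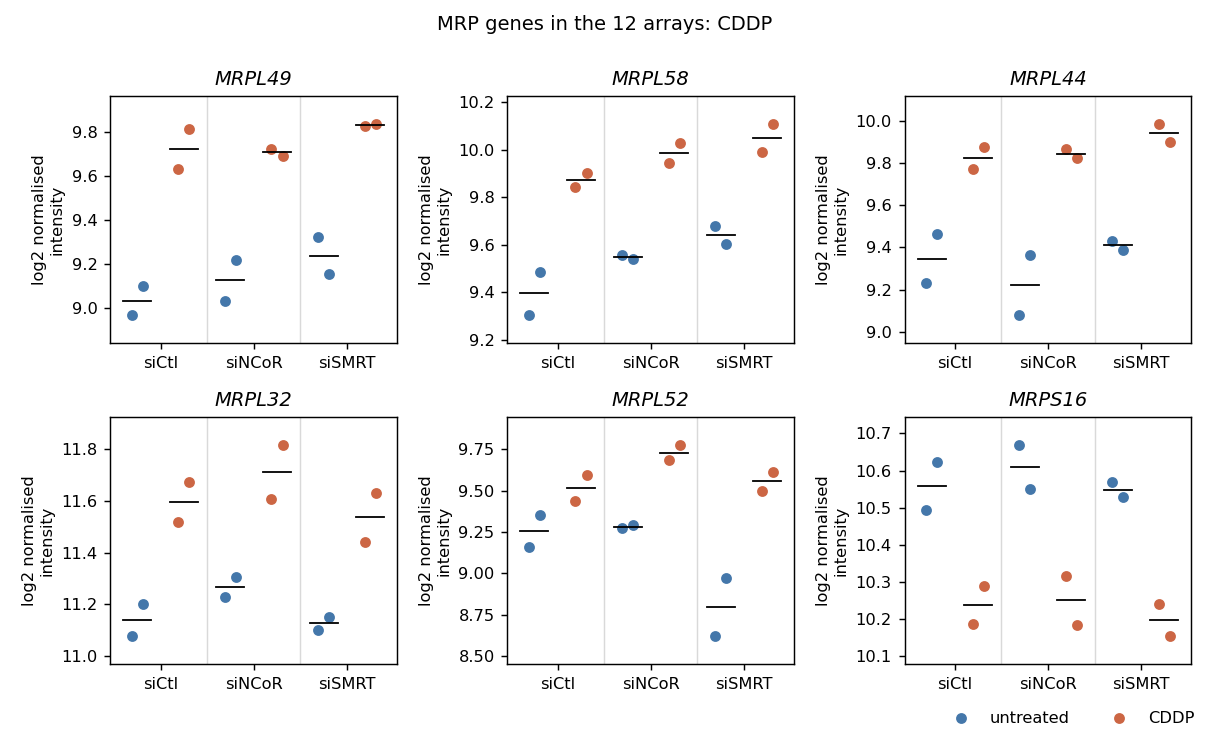
Log2 level (y axis) of 6 mitochondrial ribosomal protein genes in the 12 arrays, by siRNA (x axis), with untreated cells in blue, CDDP in orange and a black line at each mean of 2 arrays. MRPL49, MRPL58, MRPL44 and MRPL32 were higher with CDDP under every siRNA, MRPS16 was lower, and MRPL52 started lowest in untreated siSMRT cells, at 8.62 and 8.97.

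Beyond these 5, the response of the group to CDDP was small with quantile normalisation. In siCtl cells 5 of the 77 genes rose and 6 fell, where 18.2% of all 9808 genes were called higher and 19.5% lower (37.6% in either direction). In siNCoR cells 12 rose and 3 fell, against 19.6% and 21.2% of all genes (40.7%). In siSMRT cells 14 rose and 4 fell, against 21.3% and 21.6% (42.9%). Without replicate block the calls of either direction thus came to 11, 15 and 18 of 77 genes, and with the replicate number as a block to 14, 20 and 22, where the block called 44.5%, 48.3% and 50.7% of all genes. With quantile normalisation and no block, the share called higher was 6.49%, 15.6% and 18.2% and the share called lower 7.79%, 3.9% and 5.19%. Both were below those of all genes under each siRNA. For the share called higher this did not hold under every scaling, as given below. Across the 3 comparisons 25 of the 77 genes (32.5%) were called at least once, against 56.2% of all genes, and 52 were called in none. Called under all 3 siRNAs were 6.49% of the 77 genes and 26.1% of all genes. No gene was called in opposite directions under different siRNAs.

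The sizes of the changes were narrow as well. The middle range between the quartiles was -0.05 to 0.17 for the 77 genes in siCtl cells and -0.22 to 0.24 for all genes. It was -0.03 to 0.21 against -0.25 to 0.26 in siNCoR cells, and -0.02 to 0.22 against -0.26 to 0.27 in siSMRT cells. A change of at least 0.585 in size, the fold threshold of the study, was reached by the brightest probe of 1 gene in siCtl cells (MRPL49), 1 in siNCoR cells (MRPL44) and 2 in siSMRT cells (MRPL52 and MRPL49), or 1.3%, 1.3% and 2.6%, against 15.9%, 16.4% and 17.2% of all genes. The standard error of the difference was alike, with a median of 0.106 for the 77 genes and 0.114 for all. In 34 of the 77 genes (44.2%) the change stayed below 0.2 in size under every siRNA, against 22.5% of all genes. The smallest changes were those of MRPL15, MRPS7, MRPL13, MRPL42 and MRPS6.

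The median change under siCtl was 0.05, under siNCoR 0.08 and under siSMRT 0.11, beside 0.03, 0.03 and 0.03 for all genes. A positive difference was seen in 48, 52 and 54 of the 77 genes (62.3%, 67.5% and 70.1%), against 53.7%, 53.5% and 53.8% of all genes. These counts and signs depended on how the arrays were scaled. With each array scaled to the median of all its probes in place of quantile normalisation, the 77 genes gave 3 rises and 3 falls, 2 and 4, and 17 and 0, with medians of -0.01, -0.02 and 0.22. The median of all genes then moved to -0.06, -0.11 and 0.06. Of all 9808 genes 716, 556 and 1622 were then called higher, a share that the 77 genes exceeded in siSMRT cells only. With each array scaled to the median of the probes above the floor, there were 23 rises and 1 fall, 29 and 1, and 42 and 0. The medians were 0.16, 0.19 and 0.29 beside 0.11, 0.10 and 0.12 for all genes. Of all 9808 genes 2477, 2670 and 3059 were then called higher, a share that the 77 genes exceeded under each siRNA. Relative to the median of all genes, the 77 genes stood higher under each of the 9 settings that keep 1 value per gene and all arrays, by 0.02 to 0.05 under siCtl, 0.05 to 0.09 under siNCoR and 0.07 to 0.16 under siSMRT. Leaving out siCtl CDDP replicate 2 turned the first of these to -0.04.

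**Figure D2:**
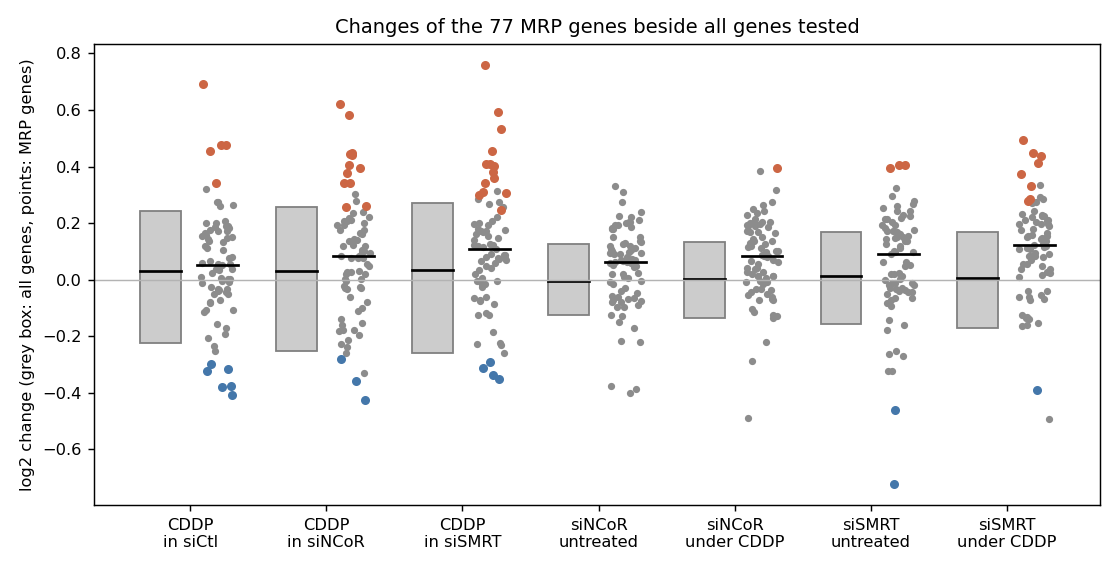
Log2 difference (y axis) of the 77 mitochondrial ribosomal protein genes in 7 comparisons (x axis), with genes called higher in orange, genes called lower in blue, the others in grey and a black line at their median. The grey box spans the quartiles of all 9808 genes, and in the 3 CDDP comparisons the quartiles of the 77 genes (-0.05 to 0.17 in siCtl cells) lie inside the box (-0.22 to 0.24).

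Genes named MRPL made up most of the rises, but they are also most of the genes. Of the 49 MRPL genes, 4 rose and 2 fell in siCtl cells, 9 and 1 in siNCoR cells, and 12 and 2 in siSMRT cells. Of the 28 MRPS genes, 1 rose and 4 fell, 3 and 2, and 2 and 2. The share called higher was 8.16%, 18.4% and 24.5% of the MRPL genes, and 3.57%, 10.7% and 7.14% of the MRPS genes. Of all genes 18.2%, 19.6% and 21.3% were called higher, so the MRPL genes exceeded that share in siSMRT cells only. The names do not follow the subunits throughout (MRPS18A and MRPS30 are proteins of the large one), and the difference between the names was not tested.

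In siCtl cells the other rise was that of MRPS2, a small subunit protein of bacterial type, by 0.34 (SE 0.116, limma adjusted p = 0.0359). The call was lost with median scaling over all probes, with no filter on dim probes, with only the arrays compared, and without siCtl untreated replicate 1 or siCtl CDDP replicate 2. Lower in the same cells were MRPS31 (a fall by 0.41), MRPS28 (by 0.38), MRPL45 (by 0.37), MRPS10 (by 0.31) and MRPL22 (by 0.30). MRPL45 sits where the nascent chain leaves the ribosome at the inner membrane, and MRPL22 lines the exit tunnel. The untreated arrays of MRPS31 stood at 10.09 and 10.17 and the treated ones at 9.64 and 9.80. Those of MRPS28 stood at 11.08 and 11.08, and at 10.54 and 10.86 with CDDP, so that the replicates with CDDP lay apart. The calls of MRPS10 and MRPL22 were lost under both forms of median scaling, those of MRPL45 and MRPS28 under the form that uses probes above the floor, and that of MRPS31 under neither. The second probes of MRPL45 and MRPL22 differed by -0.09 and -0.07 in siCtl cells and were not called.

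In siNCoR cells MRPL52 rose by 0.45, MRPL9 by 0.41, MRPL47 by 0.40 and MRPS14 by 0.38, with limma adjusted p of 0.0121, 0.021, 0.0297 and 0.0243. MRPL36 fell by 0.43 and MRPS10 by 0.28 (adjusted p = 0.0111 and 0.0264). All 4 rises were lost with median scaling over all probes, and without siNCoR untreated replicate 1 or siNCoR CDDP replicate 2. The fall of MRPS10 was lost under both forms of median scaling and without any 1 of the 4 siNCoR arrays. The untreated siNCoR arrays of MRPL36 measured 12.21 and 12.27, and those with CDDP 11.85 and 11.77. In siCtl cells its values of 12.07 and 12.17 and of 11.74 and 12.11 with the drug did not give a call. MRPL36 is the small zinc-binding protein of the large subunit that bacteria also have, and its fall in siNCoR cells was lost when arrays were scaled to the probes above the floor, and without siNCoR untreated replicate 2 or siNCoR CDDP replicate 2.

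In siSMRT cells the largest rise was that of MRPL52, a large subunit protein without a bacterial counterpart. Its untreated siSMRT arrays measured 8.62 and 8.97 and those with CDDP 9.50 and 9.61, a rise of 0.76 (SE 0.123, limma adjusted p = 0.000444) that held under all 10 other settings and without any of the 12 arrays. In siCtl cells it measured 9.16 and 9.35, and 9.44 and 9.60 with the drug, and in siNCoR cells 9.27 and 9.29, and 9.69 and 9.77. The treated siCtl and siSMRT arrays overlapped, both treated siNCoR arrays lay above them, and the untreated siSMRT arrays were the 2 lowest of the 12. MRPL57 rose by 0.45, MRPL28 by 0.40 and MRPS14 by 0.38 in siSMRT cells (limma adjusted p = 0.0144, 0.0149 and 0.022). The calls of MRPL28 and MRPS14 were lost with median scaling over all probes, and that of MRPS14 also with no filter on dim probes. All 3 were lost without siSMRT untreated replicate 1. Those of MRPL57 and MRPS14 were also lost without siSMRT CDDP replicate 2, and that of MRPL28 without siSMRT untreated replicate 2 or CDDP replicate 1. MRPS14 was dim, with 6.37 and 6.56 rising to 6.76 and 6.93. MRPL45, MRPL36 and MRPS31 fell by 0.34, 0.31 and 0.29 (adjusted p = 0.0365, 0.0456 and 0.0392), and all 3 calls were lost under both forms of median scaling. That of MRPL36 was also lost without any 1 of 10 of the 12 arrays, and its difference was -0.01 in 1 of the scalings. The second probe of MRPL45 differed by 0.01 in these cells.

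The 3 drug comparisons use different arrays, so that their values can be set against each other. Over the 77 genes the changes in siCtl and siNCoR cells had a Pearson correlation of 0.805 (Spearman 0.770), those in siCtl and siSMRT cells 0.782 (0.747), and those in siNCoR and siSMRT cells 0.861 (0.865). Over all genes the Pearson values were 0.925, 0.892 and 0.940. These are descriptions across genes, which are not independent replicates. Of the 11 genes called in siCtl cells, 4 were also higher and 2 also lower in siNCoR cells, which is 54.5% of the first list and 40% of the second. With siSMRT cells 4 rises and 3 falls were shared, 63.6% and 38.9% of the lists, and siNCoR and siSMRT cells shared 9 rises and 2 falls, 73.3% and 61.1%. A positive difference under all 3 siRNAs was seen in 40 genes and a negative one in 16. These overlaps and sign counts are given without those of all genes and are not read as particular to the 77 genes.

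**Figure D3:**
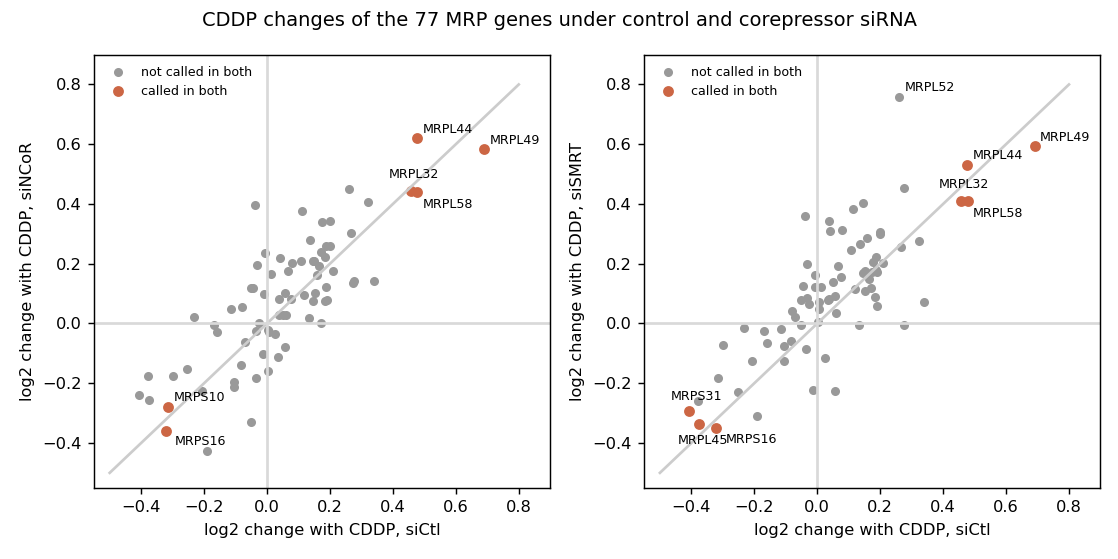
Log2 change with CDDP in siCtl cells (x axis) against that in siNCoR cells (left, y axis) and siSMRT cells (right, y axis) for the 77 genes, with the grey diagonal at equality and genes called in both comparisons in orange. The Pearson correlations are 0.805 and 0.782, and the 4 rises common to both panels are MRPL49, MRPL58, MRPL44 and MRPL32.

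No difference in the drug response between siRNAs passed the test for any of the 77 genes. With limma 0 of the 77 genes passed in siNCoR against siCtl and 0 in siSMRT against siCtl, where 0% and 0.0102% of all genes were called. At an unadjusted p below 0.05 there was 1 of the 77 genes in each, beside 471 and 897 of all 9808 genes. The fit with the replicate number as a block also gave 0 and 0 (0% and 0.0102% of all genes). The smallest p was that of MRPL47 for siNCoR, with a response 0.44 larger than in siCtl cells (95% interval 0.03 to 0.84, adjusted p = 0.977), and that of MRPL52 for siSMRT, 0.50 larger (95% interval 0.12 to 0.88, adjusted p = 0.451). The untreated siNCoR arrays of MRPL47 measured 9.27 and 9.65 and the treated ones 9.73 and 9.99, beside 9.61 and 9.66, and 9.67 and 9.52, in siCtl cells. For MRPL47 in siSMRT cells the difference was 0.40, with an interval of -0.00 to 0.80, and by the second probe of MRPL47 the differences were 0.15 for siNCoR and 0.11 for siSMRT. Intervals of this width leave differences of moderate size undecided with 2 arrays per group.

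In untreated cells, knock-down of NCoR gave no call among the 77 genes, where 5.26% of all genes were called (2.97% higher and 2.29% lower). At an unadjusted p below 0.05 there were 9, a smaller share than the 1927 of all 9808 genes. With the replicate block 2 passed (10.1% of all genes). These were MRPL39, whose difference was 0.31 (limma adjusted p = 0.0666, with the block 0.0382), and MRPS14, at -0.40 (adjusted p = 0.0807, with the block 0.0105). MRPL39 measured 11.41 and 11.39 in siCtl and 11.71 and 11.71 in siNCoR cells, and MRPS14 6.69 and 6.89 against 6.26 and 6.51, without overlap in either gene. MRPL43 and MRPL34 followed with -0.38 and 0.33 (adjusted p = 0.13 and 0.14).

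In untreated cells, knock-down of SMRT raised 3 genes and lowered 2, or 6.49% of the 77 genes, where 15.8% of all genes were called (7.26% higher and 8.54% lower). With the replicate block 8 were higher and 4 lower, where 11.4% of all genes were higher and 12.3% lower (23.6%), the added ones being MRPL23, MRPL39, MRPL46, MRPS12 and MRPS31 above and MRPS10 and MRPS14 below siCtl. MRPL50, without a bacterial counterpart, measured 10.73 and 10.76 in siCtl and 11.07 and 11.24 in siSMRT cells, a rise of 0.41 (SE 0.105, limma adjusted p = 0.022). MRPL12, which forms the mobile stalk that recruits translation factors, measured 10.67 and 10.69 against 11.07 and 11.07, a rise of 0.39 (SE 0.102, adjusted p = 0.0232). MRPS2 measured 9.58 and 9.79 against 10.09 and 10.10, a rise of 0.41 (SE 0.116, adjusted p = 0.0336). In all 3 genes both siSMRT arrays lay above both siCtl arrays. The 3 rises were lost with median scaling over all probes and with no filter on dim probes.

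MRPL10, which anchors the MRPL12 stalk to the large subunit, moved in the other direction. Its untreated siCtl arrays measured 8.57 and 8.90 and its siSMRT arrays 7.79 and 8.24, a fall by 0.72 (SE 0.218, limma adjusted p = 0.0421). The arrays did not overlap, but the replicates of each group lay far apart, and the call was lost without any 1 of 7 of the 12 arrays. MRPL52 fell by 0.46 (SE 0.123, adjusted p = 0.026), from 9.16 and 9.35 to 8.62 and 8.97. The number of calls in this comparison rested on single arrays: it was 0 without siCtl untreated replicate 1, 2 without siCtl untreated replicate 2, 1 without siSMRT untreated replicate 1 and 2 without siSMRT untreated replicate 2.

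**Figure D4:**
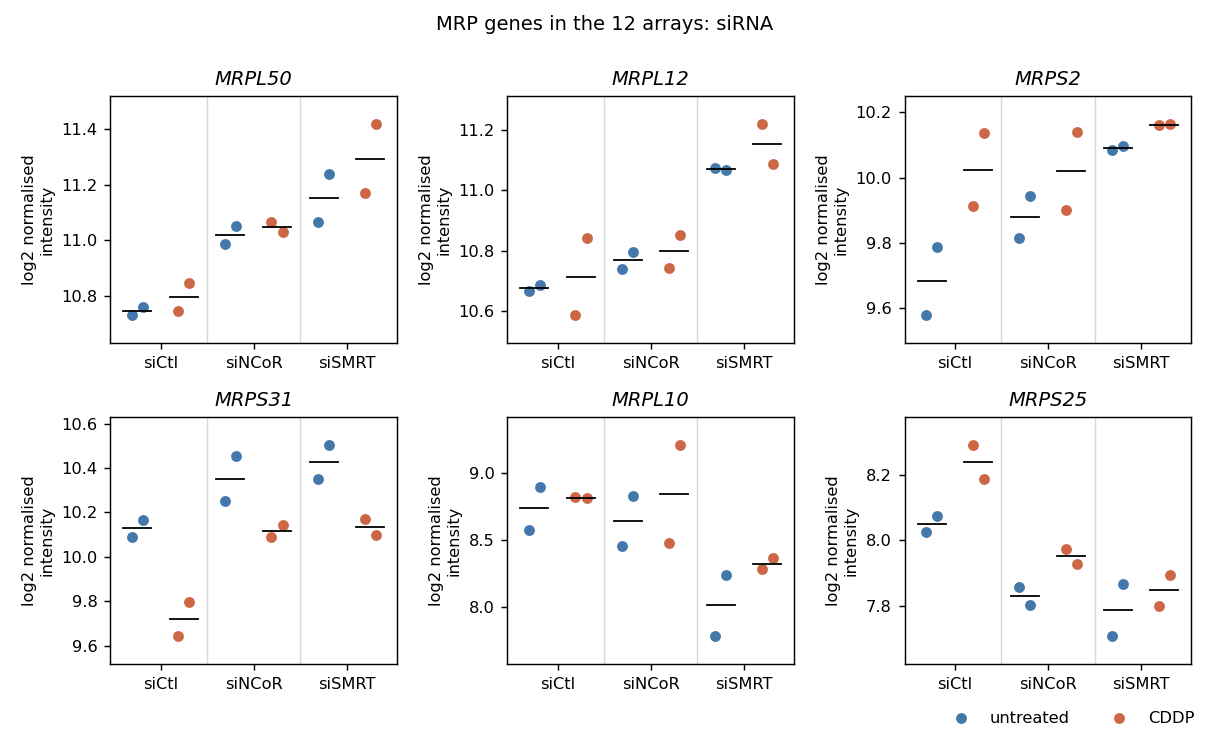
Log2 level (y axis) of 6 genes that differed between siRNAs, in the 12 arrays by siRNA (x axis), with untreated cells in blue, CDDP in orange and a black line at each mean of 2 arrays. MRPL50, MRPL12 and MRPS2 were higher in untreated siSMRT than in untreated siCtl cells and MRPL10 was lower, while MRPS31 and MRPS25 differed under CDDP.

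Under CDDP, 1 gene was higher in siNCoR than in siCtl cells and none lower, where 6.58% of all genes were called (3.49% higher and 3.09% lower). MRPS31, a small subunit protein without a bacterial counterpart, measured 9.64 and 9.80 in siCtl cells and 10.09 and 10.14 in siNCoR cells, a difference of 0.39 (SE 0.104, limma adjusted p = 0.0428). It was no longer called without 10 of the 12 arrays, taken 1 at a time. With the replicate block MRPS28 at 0.38 (adjusted p = 0.0528, with the block 0.0241) and MRPL30 at -0.49 (adjusted p = 0.0763, with the block 0.0321) also passed, where the block called 12.8% of all genes. At an unadjusted p below 0.05 there were 12 genes.

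Under CDDP, 8 genes were higher in siSMRT than in siCtl cells and 1 was lower, where 7.89% of all genes were called higher and 9.4% lower (17.3% in either direction). MRPL50 measured 10.75 and 10.85 in siCtl and 11.17 and 11.42 in siSMRT cells, a difference of 0.50 (SE 0.105, limma adjusted p = 0.00834). MRPL27, which lies near the peptidyl transferase centre, measured 10.10 and 10.13 against 10.55 and 10.57, a difference of 0.45 (SE 0.0949, adjusted p = 0.00856). MRPL12 measured 10.59 and 10.84 against 11.22 and 11.09, a difference of 0.44 (SE 0.102, adjusted p = 0.0139). The siSMRT arrays lay above the siCtl arrays in each of these genes. Also higher were MRPS31 by 0.41, MRPL23 (at the exit of the tunnel) by 0.37, MRPS18A (a large subunit protein despite its name) by 0.33, MRPL39 by 0.29 and MRPS12 (of the decoding centre) by 0.28. MRPS25, of the small subunit, was the gene that was lower, at 8.29 and 8.19 in siCtl and 7.80 and 7.89 in siSMRT cells, a fall by 0.39 (SE 0.0929, adjusted p = 0.0147). All 9 calls were lost without siCtl CDDP replicate 1, and 2 and 4 of the 77 genes were called without siSMRT CDDP replicates 1 and 2.

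The comparisons of siNCoR and siSMRT cells share the siCtl arrays, so that a siCtl array that stands apart moves both. The median difference of the 77 genes from siCtl was 0.06 for siNCoR and 0.09 for siSMRT in untreated cells, and 0.08 and 0.12 under CDDP, beside -0.00, 0.01, 0.00 and 0.01 over all genes. It lay above the median of all genes under each setting with all arrays, by 0.06 to 0.07, 0.05 to 0.09, 0.07 to 0.10 and 0.11 to 0.14. Without siCtl untreated replicate 1 the first 2 of these margins were 0.01 and 0.03, and without siCtl CDDP replicate 1 the other 2 were 0.03 and 0.03. Each gene's level was also set against its mean over the 12 arrays. The median of these deviations was -0.12 and -0.03 in untreated siCtl cells (replicates 1 and 2), -0.08 and 0.05 in siCtl cells with CDDP, -0.06 and -0.03 and then 0.02 and 0.07 in siNCoR cells, and -0.01 and 0.02 and then 0.08 and 0.12 in siSMRT cells. Replicate 1 was the lower array in every group.

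The untreated and the CDDP-treated comparison of siSMRT with siCtl share no arrays. Over the 77 genes they had a Pearson correlation of 0.722 (0.699 over all 9808 genes), and 61 genes had the same sign. MRPL50 and MRPL12 were higher in both, which is 40% of the genes called without the drug and 22.2% of those called with it. The count of equal signs and this overlap are given without those of all genes. For siNCoR the same correlation was 0.597 (0.710 over all genes).

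The length of each gene was also set beside its response. The 77 genes were short, with a median span of 8.62 kb against 29.0 kb over the 9801 tested genes with a length (GRCh38.p14), and ranged from 0.677 kb (MRPL41) to 112 kb (MRPS28). Over the 77 genes the Pearson correlation of log10 length with the change under CDDP was -0.321 under siCtl, -0.256 under siNCoR and -0.252 under siSMRT, and over all genes -0.478, -0.486 and -0.445. The 77 points share their 12 arrays, and no p is given. Below 5 kb 1 of the 22 mitochondrial ribosomal protein genes (4.55%) was called higher in siCtl cells, against 27.2% of all genes of that length. Between 5 and 15 kb the numbers were 3 of 30 against 30.1% of all genes. Between 15 and 40 kb 2 of 13 (15.4%) were called lower in the same cells, against 7.58%, and between 40 and 120 kb 2 of 12 (16.7%), against 27.6%. In siSMRT cells 2 of the 12 longest were called higher (16.7%), against 8.09%.

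The shortest genes gave no call. MRPL41 differed by 0.12, 0.10 and 0.12 in siCtl, siNCoR and siSMRT cells and MRPL53 (0.699 kb) by 0.14, 0.28 and 0.27, without a call. The longest, MRPS28, fell in siCtl cells as given above. MRPS27 (101 kb) differed by -0.21, -0.23 and -0.13 and MRPL1 (90.0 kb) by 0.06, -0.08 and -0.23, without a call, while MRPL48 (77.3 kb) rose by 0.34 in siSMRT cells. Both directions thus occurred among the long members.

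**Figure D5:**
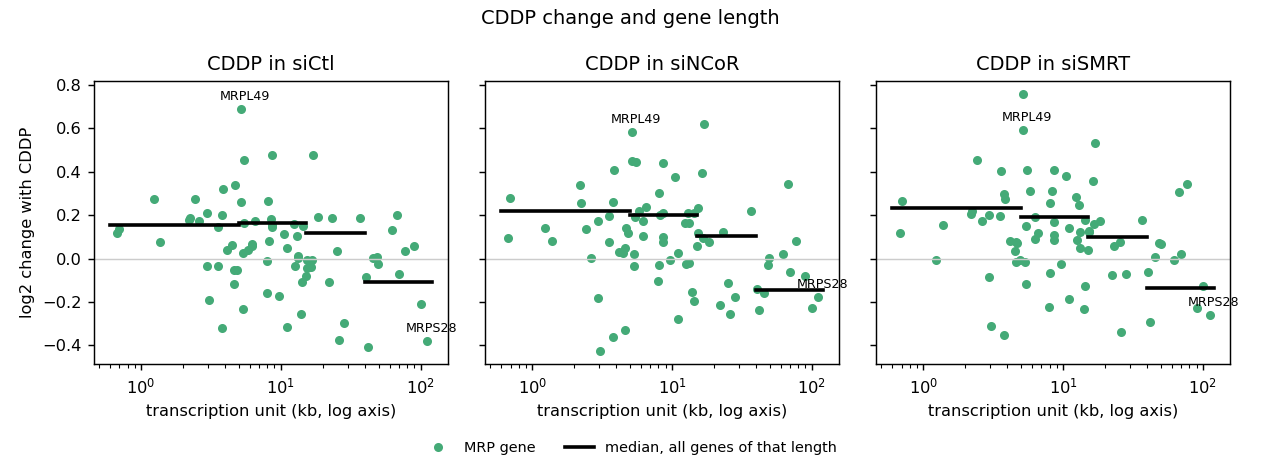
Log2 change with CDDP (y axis) against gene length in kb (x axis, log scale) for the 77 genes in siCtl, siNCoR and siSMRT cells, with black lines at the median of all tested genes in each length range. The points scatter around or below the line among genes under 15 kb, where the medians over all genes were 0.15 and 0.16 in siCtl cells beside 0.13 and 0.07 for the mitochondrial ribosomal protein genes.

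RefSeq promoter windows were found for 69 of the 77 genes (85 windows). MRPL13, MRPL35, MRPS28, MRPL15, MRPL10, MRPL2, MRPL21 and MRPL23 had none in the table used. The ETS motif CCGGAAG, bound by GABP among others, was in 38.8% of these windows, against 17.2% of 11857 windows of tested genes and 10.3% of all 35116 windows. The YY1 motif AAGATGG was in 31.8%, against 6.98% and 5.84%. The NRF1 motif (GCGC, any base, then TGCGC) was in 11.8% against 10.3% and 5.78%, the E-box in 10.6% against 9.59% and 7.26%, the CCAAT box in 32.9% against 35.4% and 34.6%, and the TATA box TATAAA in 3.53% against 6.31% and 11.5%. Both strands were read, and none of the motifs is contained in another. The median change with CDDP in siCtl cells was 0.02 for the 30 genes with an ETS motif and 0.11 for the 39 without. It was 0.10 and 0.05 in siNCoR cells, and 0.12 and 0.08 in siSMRT cells. For the 24 genes with a YY1 motif and the 45 without it was 0.06 and 0.06 in siCtl cells, 0.08 and 0.10 in siNCoR cells, and 0.13 and 0.09 in siSMRT cells. The 9 genes with an NRF1 motif had medians of -0.04, -0.15 and -0.09 under siCtl, siNCoR and siSMRT and the 60 without 0.06, 0.10 and 0.12, a description of small groups with no test.

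Of the 69 genes, 27 (39.1%) start within 1000 bases of a gene on the opposite strand, against 29.7% of 8075 tested genes. The starts of MRPL49 and FAU, a cytosolic ribosomal protein gene, lie 49 bases apart. FAU differed by 0.15, 0.15 and 0.17 with CDDP and was not called, while MRPL49 rose by 0.69, 0.58 and 0.59. The starts of MRPL32 and the proteasome gene PSMA2 lie 202 bases apart, and PSMA2 differed by 0.01, 0.08 and 0.25, again without a call. MRPL46 and MRPS11 start 320 bases apart. In siSMRT cells MRPS11 rose by 0.25 with CDDP, while MRPL46 differed by -0.22 without a call.

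Other genes of mitochondrial translation and their counterparts in the cytosol were counted in the same fit, from lists chosen by function. Of 69 cytosolic ribosomal protein genes, 5 rose and 0 fell with CDDP in siCtl cells, 5 and 1 in siNCoR cells and 9 and 0 in siSMRT cells, with medians of -0.01, 0.03 and 0.04. Of 65 nuclear-encoded subunits of the respiratory chain and the ATP synthase, 4 rose and 0 fell, 10 and 0, and 16 and 1, with medians of 0.06, 0.13 and 0.14. With the replicate block these became 5 and 2, 16 and 0, and 22 and 1. The highest of them was ATP5MK, a small subunit of the ATP synthase, at 1.10, 1.10 and 1.25 (limma adjusted p = 0.000322, 0.000307 and 0.000123).

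Genes that serve the mitochondrial ribosome gave calls in both directions. Of 14 translation factors 2 rose and 4 fell in siCtl cells, among them MTIF3, the initiation factor, which fell by 0.51 (limma adjusted p = 0.0027), and MTFMT, which formylates the initiator tRNA and rose by 0.49 (adjusted p = 0.0055). In siNCoR cells 2 rose and 3 fell, and in siSMRT cells 1 rose and 0 fell. Of 14 mitochondrial tRNA synthetases 1 rose and 3 fell, 2 and 3, and 3 and 4. WARS2, LARS2 and FARS2 fell by 0.58, 0.59 and 0.60 in siCtl cells, and VARS2 rose by 0.44. Of 24 assembly factors and rRNA modifying enzymes 3 rose and 3 fell, 1 and 3, and 2 and 4. The RNA methyltransferases TRMT61B and METTL15 fell by 0.92 and 0.75 in siCtl cells, and MRM3 and MTERF3 rose by 0.69 and 0.55.

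Of 16 genes that copy, transcribe or process mitochondrial DNA and its RNA, 5 rose and 1 fell, 6 and 2, and 6 and 2. TWNK, the replicative helicase, rose by 0.67, 0.71 and 0.61 in siCtl, siNCoR and siSMRT cells, TFAM, which packages the DNA and starts its transcription, by 0.58, 0.64 and 0.47, and POLG, the polymerase, by 0.61, 0.39 and 0.58. Of 9 genes of mitochondrial protein quality control 1 rose and 2 fell under each siRNA. ATF5, a stress regulator, rose by 0.54 in siCtl and 0.54 in siNCoR cells, and SPG7, a subunit of the m-AAA protease, fell by 0.27, 0.29 and 0.44. Mitochondrial ribosomal proteins of other names were DAP3, at 0.14, and CHCHD1, at 0.07, in siCtl cells, neither of them called.

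Of 8 tested regulators of nuclear genes for mitochondrial proteins, 2 rose and 3 fell with CDDP in siCtl cells, and 0 and 2 did so under each other siRNA. GABPB1, a subunit of the ETS factor GABP, fell by 0.50, 0.85 and 0.63 (limma adjusted p = 0.00101, 2.15e-05 and 0.000194), and the co-activator PPARGC1B fell by 0.56, 0.65 and 0.55. In untreated siSMRT against siCtl cells 4 of the 8 were higher and 1 lower: GABPB1 by 0.49, PPARGC1B by 0.55, MYC by 0.82 and PPRC1 by 0.47, while GABPA, the DNA-binding subunit of GABP, fell by 0.51. Whether these levels bear on those of the mitochondrial ribosomal protein genes was not tested.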

How the data were processed

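Analysis began from the raw intensity values on a linear scale that the authors deposited, 1 set per array, exported from BeadStudio per the labels (no version given in the sources used here), and, as an alternative, the processed intensity table the authors deposited, made with Corgon and multi-loess normalisation. In limma 3.58.1 (R 4.3.3) background was corrected by normexp (offset 16), followed by quantile normalisation and log2. Raw array medians were 54 to 65.3, and 2 arrays per group limit the precision. The probe table names 1 gene for 27578 of the 48803 probes, several for 13 and none for 21212. Probes whose quantile-normalised signal before background correction exceeded 100 on the linear scale in both arrays of at least 1 group were kept (14801, 12638 with 1 gene), and the brightest stood for a gene. The model had 1 coefficient per group, 6 residual degrees of freedom and Benjamini-Hochberg adjustment over 9808 genes, with 9 comparisons. The titles number the duplicates. Same-numbered arrays deviated together in 15 of 15 pairs of groups (correlation 0.203 to 0.420), so a fit with that number as a block is also given. Named genes are those with the largest called rises and falls in each comparison or, with few calls, the smallest p. The members and lists were chosen with earlier results of these data known. The code was tested on simulated data. Alternatives were other background corrections, scalings, filters, probe rules and samples, the block, and leaving out each array.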

Additional observations from a re-analysis of the deposited data

How the results depend on the processing

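No named change reversed its sign past the test under any of the settings tried. The cause of a change between settings was not tested, apart from those that drop samples or add features. Of the 77 genes, 11, 15 and 18 were called with CDDP in siCtl, siNCoR and siSMRT cells. The counts were 18, 25 and 28 when every probe was a feature, 6, 6 and 17 with median scaling over all probes, and 24, 30 and 42 with median scaling over probes above the floor, an alternative chosen after seeing the data. They were 6, 9 and 9 with no filter on dim probes, and 6 in siCtl cells with only the arrays compared. For siSMRT against siCtl in untreated cells the count of 5 became 3 (0 higher and 3 lower), 0 and 12 with median scaling, no filter and the replicate block, and under CDDP the count of 9 became 4, 4 and 18 with median scaling, no filter and scaling over probes above the floor. For siNCoR under CDDP the count of 1 became 0 with every probe, median scaling, no filter or only the arrays compared, 2 with the authors' processed values, the mean of probes, no background correction, an offset of 50 or scaling over probes above the floor, and 3 with the replicate block. For siNCoR untreated the count of 0 became 1 with an offset of 50 and 2 with the block. The block lost no call of the 77 genes.

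The median change with CDDP was 0.16 in siCtl cells with scaling over probes above the floor. In siNCoR cells it was 0.12 with every probe, 0.12 with the mean of probes, -0.0214 with median scaling and 0.19 with scaling over probes above the floor. In siSMRT cells it was 0.0846 with the authors' values, 0.14 with every probe, 0.12 with the mean of probes, 0.22 with median scaling, 0.11 with an offset of 50 and 0.29 with scaling over probes above the floor. With median scaling the medians of siNCoR and siSMRT against siCtl were 0.0122 and -0.0417 in untreated cells and -0.0120 for siNCoR under CDDP, and those of the response differences -0.0154 and 0.24 (0.13 for siSMRT over probes above the floor). Over all genes, 48.3%, 48.0% and 49.6% of the CDDP calls were higher, beside 26.1%, 18.3% and 48.1% with median scaling and 58.9%, 58.8% and 61.4% over probes above the floor.

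Leaving out 1 array at a time, the counts ran from 6 to 12, 5 to 15 and 4 to 19 for CDDP in siCtl, siNCoR and siSMRT cells, 0 to 0 and 0 to 5 for siNCoR and siSMRT untreated, 0 to 1 and 0 to 9 under CDDP, and 0 to 0 for both response differences. Their medians ran from -0.0159 to 0.13, 0.0454 to 0.11 and 0.0844 to 0.13, then 0.0117 to 0.12 and 0.04 to 0.14, then 0.0299 to 0.14 and 0.04 to 0.18, and -0.0329 to 0.10 and -0.0158 to 0.12. The 64 named differences were each refitted without each array (768 values). Most refits kept their side of the threshold, but many drop an array outside the comparison, which leaves the difference itself unchanged. Others belong to differences that were not called and stayed so. How often a call held without an array that it uses was not counted separately. The lowest CDDP counts came without siCtl untreated replicate 2 (6) or siCtl CDDP replicate 1 (7), without siNCoR untreated replicate 1 (7) or siNCoR CDDP replicate 2 (5), and without siSMRT untreated replicate 1 (4) or 2 (9) or siSMRT CDDP replicate 1 (8) or 2 (6).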
